A study of Mus musculus with 28 samples.

Results

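The genes described here are those of TGF-beta, BMP and activin signalling, taken by a pattern of gene symbols. The pattern matched 48 of the 13128 genes with a symbol. By role they were 3 TGF-beta ligands, 6 BMP and GDF ligands, 3 activin and inhibin subunits, 4 type I receptors, 4 type II receptors, 3 coreceptors and decoy receptors, 6 receptor-regulated and common SMADs, 4 inhibitory SMADs and Smurf ligases, 2 secreted antagonists, 1 follistatin-like protein, 4 latent TGF-beta binding proteins and 4 Id target genes. A further 4 matched by symbol only (Bmp1, Bmp2k, Tgfb1i1 and Tgfbrap1) and are neither ligands nor receptors of the family. All 48 were kept by the filter on low values.

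The study measured mRNA in DC2 cells, an immortalized mouse line made from epithelium of the distal caput of the epididymis, the duct in which sperm mature. Confluent cells on collagen received corticosterone, the main glucocorticoid of mice, at 500 ng/ml in 0.1% ethanol, or 0.1% ethanol alone, called vehicle here. The 7 groups held 4 libraries each. They were untreated cells at day 0, which the labels call vehicle, and vehicle and corticosterone cells at day 3, when treatment ended, and at days 6 and 9, after 3 and 6 days in new medium. All groups shared the same immortalized line and the same medium with serum. Nothing in the labels says that libraries came from separate cultures, so p-values measure only the spread between these libraries, which may be technical. The counts behind each value were not used here, so the depth of a library is unknown.

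Ligands of this family bind a pair of type I and type II receptor kinases at the cell surface. TGF-beta and activin ligands lead to phosphorylation of SMAD2 and SMAD3, and BMP ligands to that of SMAD1, SMAD5 and SMAD8, the product of Smad9; both sets join SMAD4 and act on genes in the nucleus. Extracellular antagonists, latency proteins that hold TGF-beta in the matrix, and the inhibitory SMAD6 and SMAD7 restrain the signal. The Id genes, which encode inhibitors of basic helix-loop-helix factors, are well-known BMP targets, and in the epididymis BMP ligands are known for a part in keeping the epithelium intact.

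Fkbp5, a cochaperone gene induced by glucocorticoids, rose by 3.05 ± 0.12 on the log2 scale with corticosterone at day 3 (limma adjusted p = 1.2e-16), by 2.61 at day 6 and by 0.74 at day 9. Nr3c1, which encodes the receptor for the hormone, fell by 1.26 at day 3, and Tsc22d3, another gene induced by glucocorticoids, rose by 2.69. Of 20 listed markers of epididymal epithelium 9 were measured, and Pax8 and Pax2, transcription factors of this epithelium, stood at 7.13 and 6.07 log2 CPM at day 0, while Epcam stood at -1.42 and Krt8 at 0.80. The sum of 3 of 8 macrophage markers (Csf1r, Cd68 and Cd14) was 68.6 to 74.4 CPM with vehicle and 34.6 to 49.2 CPM with corticosterone at day 3, 92.6 to 104 and 36.2 to 45.4 CPM at day 6, and 133 to 149 and 91.6 to 95.4 CPM at day 9. The means of all 3 were lower with corticosterone at days 3 and 6. At day 9 that of Cd68 was lower (6.62 and 5.55 log2 CPM), while those of Csf1r (-1.0 and -0.25) and Cd14 (5.4 and 5.51) were higher. The sum of 5 of 9 fibroblast markers was 60.9 to 65.4 CPM with vehicle and 113 to 134 CPM with corticosterone at day 3, and the ranges overlapped at days 6 and 9. Of these 5, the day 3 means of Dcn (3.72 and 6.48 log2 CPM) and Pdgfra (-0.03 and 1.41) were higher with corticosterone, and those of Col1a1 (3.03 and 1.65), Col1a2 (-1.45 and -2.70) and Pdgfrb (5.31 and 4.71) were lower. The sum of 2 of 6 basal cell markers was 28.1 to 37.0 and 67.9 to 81.2 CPM at day 3, 39.6 to 49.1 and 64.1 to 80.1 CPM at day 6, and 44.8 to 48.7 and 50.3 to 55.8 CPM at day 9. Nearly all of its day 3 difference was that of Cldn1 (means of 3.79 and 5.69 log2 CPM), while Itga6 stood at 4.28 and 4.41. The sum of 2 of 5 endothelial markers was 1.43 to 2.60 and 7.15 to 9.71 CPM at day 3 and 1.69 to 2.24 and 5.82 to 12.5 CPM at day 6, with overlap at day 9. Nearly all of its day 3 difference was that of Kdr (-2.72 and 2.60 log2 CPM), while Pecam1 stood at 0.84 and 1.12. The part of these markers in the results below was not tested. In bulk RNA, fewer cells of a type and less RNA per cell cannot be told apart. Corticosterone day 3 replicate 4 stood apart over all genes, at a root mean square distance of 0.520 log2 units from the mean of its group's other 3 libraries, against 0.249 to 0.366 for the remaining 27 libraries; over the 48 genes its distance was 0.353, within the range of 0.170 to 0.368 of the others. In corticosterone day 6 replicate 6 the hormone-induced genes stood lower than in the group's other 3 libraries, Fkbp5 at 8.32 log2 CPM against 9.13 to 9.19 and Tsc22d3 at 6.41 against 7.38 to 7.46. Without that library 19 of the 48 genes described here rose and 11 fell at day 6.

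The fold changes of the 48 genes went in both directions. With corticosterone, Id1, Id3, Id4, Smad6 and Smad9 rose at days 3 and 6, while Tgfb1, Tgfb3, Bmp4, Gdf11 and Inhbb fell at both days. At day 3, 13 of the 48 rose and 14 fell, against 23.3% and 25.6% of all genes tested. At day 6, 18 rose and 12 fell, against 22.9% and 24.3% of all genes. At day 9, 8 rose and 9 fell, against 14.1% and 14.4%. The share called in either direction was 56.2, 62.5 and 35.4% of the 48 at the 3 days, beside 49.0, 47.2 and 28.5% of all genes. The median log2 fold change of the 48 was -0.05, 0.09 and -0.03, beside -0.01, 0.00 and 0.00 over all genes. The 3 comparisons use separate vehicle libraries, 1 set for each day. Each rise or fall with corticosterone is against the vehicle libraries of the same day, not against an earlier day.

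**Figure D1:**
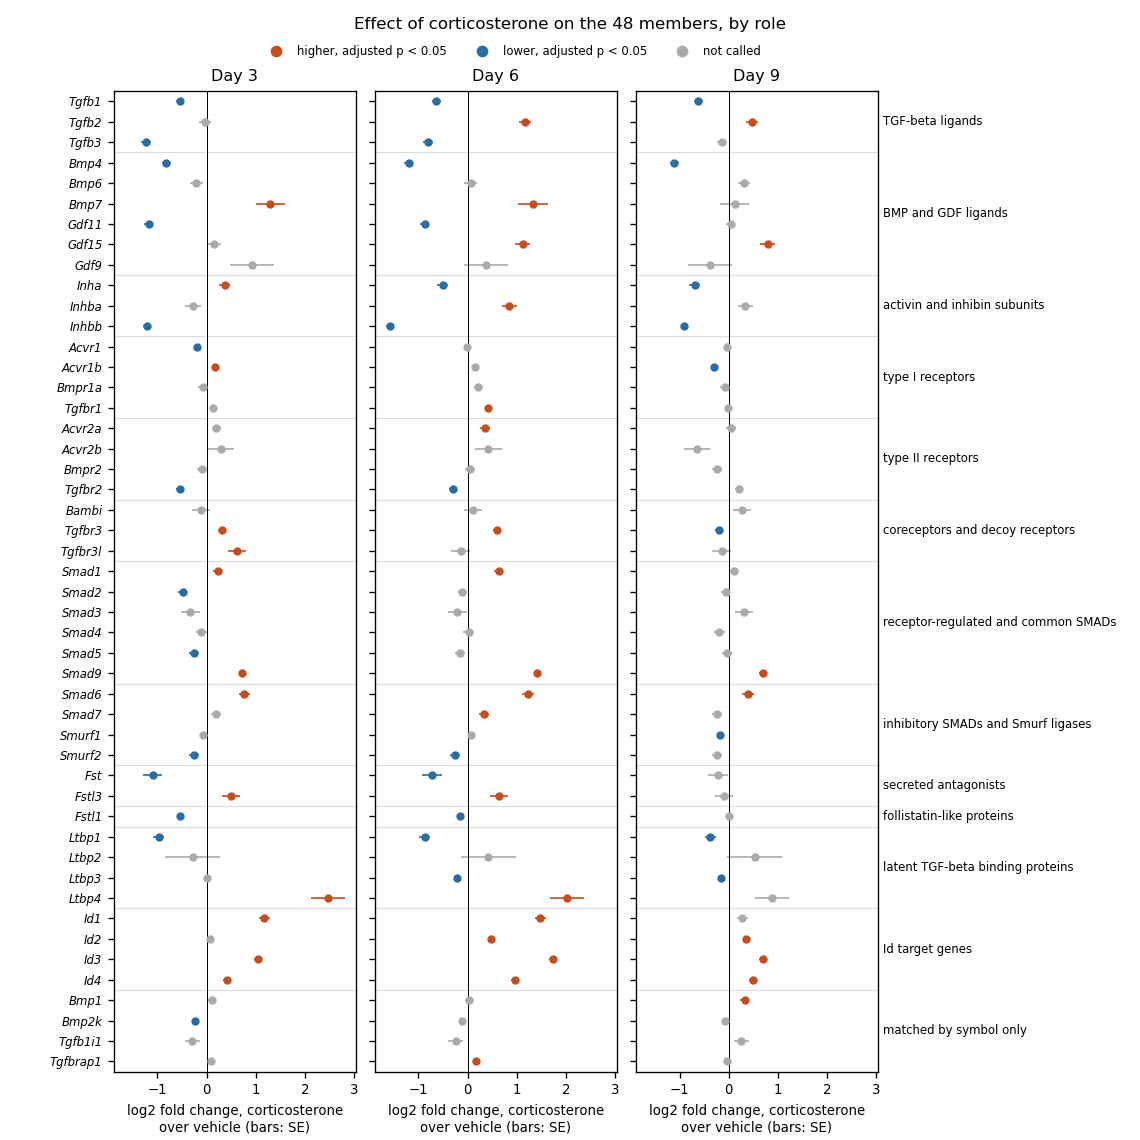
Log2 fold change of corticosterone over vehicle at days 3, 6 and 9 for the 48 genes, grouped by role, with bars for the SE of the contrast (4 libraries a group); coloured points have a limma adjusted p under 0.05. The Id genes sit to the right of 0 at all 3 days, Inhbb, Bmp4 and Tgfb1 sit to the left at all 3, and the median absolute value over the 48 genes is 0.29, 0.42 and 0.25 at the 3 days.

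In all, 10 of the 48 genes (20.8%) rose at both day 3 and day 6, beside 16.2% of all genes tested, and 10 (20.8%) fell at both, beside 17.5%. Id3, Id4, Smad6 and Smad9, 8.33% of the 48, rose at all 3 days, as did 5.41% of all genes. Tgfb1, Bmp4, Inhbb and Ltbp1, again 8.33%, fell at all 3, as did 5.38% of all genes. Inha, Acvr1b and Tgfbr3 were called in opposite directions on different days. The 10 genes called on none of the 3 days were Acvr2b, Bambi, Bmp6, Bmpr1a, Bmpr2, Gdf9, Ltbp2, Smad3, Smad4 and Tgfb1i1.

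The 3 TGF-beta ligand genes responded in 3 different ways. Tgfb3 stood at 4.85, 5.09, 5.01 and 5.00 log2 CPM in the vehicle libraries of day 3 and at 3.72, 3.85, 3.70 and 3.70 in the corticosterone libraries. At day 6 the values were 4.51, 4.63, 4.51 and 4.56 with vehicle and 3.70, 3.75, 3.45 and 4.08 with corticosterone. At day 9 they were 4.27, 4.39, 4.24 and 4.03 with vehicle and 4.16, 4.16, 3.97 and 4.08 with corticosterone. All corticosterone libraries lay below all vehicle libraries at days 3 and 6, and the groups overlapped at day 9. Tgfb3 fell by 1.24 ± 0.10 at day 3 (limma adjusted p = 3.6e-11) and then by 0.81 ± 0.10 on day 6 (adjusted p = 7.9e-08), and its value at day 9 was -0.14 ± 0.10 (adjusted p = 0.3). The effect at day 9 differed from that at day 3 by 1.10 ± 0.13 (adjusted p = 3.4e-07).

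Tgfb2 was not called at the end of treatment and was called higher with corticosterone at days 6 and 9. Its day 3 values were 6.05, 6.1, 6.07 and 6.25 log2 CPM with vehicle and 6.35, 5.87, 6.07 and 6.06 with corticosterone. At day 6 vehicle libraries stood at 5.74, 5.79, 5.68 and 5.82 and corticosterone libraries at 6.90, 7.02, 6.82 and 6.93. At day 9 vehicle libraries stood at 5.76, 5.60, 5.71 and 4.99 and corticosterone libraries at 6.00, 6.05, 5.99 and 5.88. Groups overlapped at day 3 only, and 1 vehicle library of day 9 lay below the rest. The difference was -0.03 ± 0.12 at day 3 (limma adjusted p = 0.843). Tgfb2 rose by 1.16 ± 0.12, or 2.23-fold, at day 6 (adjusted p = 4.0e-09) and then by 0.47 ± 0.12 on day 9 (adjusted p = 0.0031). Between day 3 and day 6 the effect changed by 1.19 ± 0.16 (adjusted p = 1.5e-05). Tgfb1 fell at all 3 days, by 0.54, 0.64 and 0.62, with no overlap of the groups at any day.

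In the BMP and GDF ligand genes, 1 of 6 rose and 2 fell at day 3, and 2 rose and 2 fell at day 6. The share of these 6 genes called at day 3 was close to the 49.0% of all genes. At day 6 it was 66.7%, beside 47.2% of all genes. Bmp4, a ligand of the BMP receptors, stood at 2.64, 2.69, 2.86 and 2.76 log2 CPM with vehicle at day 3 and at 1.83, 2.08, 1.87 and 1.87 with corticosterone. Its day 6 values were 3.5, 3.35, 3.53 and 3.53 with vehicle and 2.06, 2.16, 2.36 and 2.51 with corticosterone. At day 9 it stood at 4.13, 4.07, 4.09 and 3.90 with vehicle and at 2.94, 2.96, 2.91 and 2.92 with corticosterone. The groups did not overlap at any day, and the group mean was higher at each later day under both treatments. Bmp4 fell by 0.82 ± 0.09 at day 3 (limma adjusted p = 2.4e-08), by 1.20 ± 0.09 at day 6 (adjusted p = 1.9e-11) and then by 1.11 ± 0.09 on day 9 (adjusted p = 5.9e-10). The day 9 effect was not called different from that of day 3 (-0.29 ± 0.13, adjusted p = 0.077), but it was without vehicle day 9 replicate 6 (-0.34, adjusted p = 0.0463).

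Gdf11, an activin-like ligand that signals through SMAD2 and SMAD3, stood at 5.56, 5.66, 5.58 and 5.45 log2 CPM with vehicle at day 3 and at 4.43, 4.36, 4.25 and 4.48 with corticosterone. At day 6 it stood at 5.30, 5.39, 5.28 and 5.26 with vehicle and at 4.47, 4.38, 4.18 and 4.73 with corticosterone. Day 9 vehicle values were 5.19, 5.2, 4.97 and 4.94 and corticosterone values 5.19, 5.2, 5.07 and 5.00. Corticosterone libraries lay apart and below at the first 2 times and among the vehicle libraries at day 9. Gdf11 fell by 1.18 ± 0.09 at day 3 (limma adjusted p = 1.1e-11) and then by 0.87 ± 0.09 on day 6 (adjusted p = 3.0e-09). The value at day 9 was 0.04 ± 0.09 (adjusted p = 0.767), a change from day 3 of 1.22 ± 0.12 (adjusted p = 9.9e-09).

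Gdf15, a divergent family member induced by many cell stresses, stood at 6.67, 6.62, 6.69 and 6.67 log2 CPM with vehicle and 6.68, 6.89, 6.75 and 6.96 with corticosterone at day 3. Day 6 values were 6.05, 5.93, 6.80 and 6.76 with vehicle and 7.14, 7.38, 7.75 and 7.77 with corticosterone. At day 9 they were 6.06, 6.27, 5.98 and 5.89 with vehicle and 6.89, 6.77, 6.79 and 6.92 with corticosterone. The vehicle libraries of day 6 fell into a lower and a higher pair, both below the corticosterone libraries. The day 3 difference was 0.15 ± 0.15 (limma adjusted p = 0.422). Gdf15 rose by 1.12 ± 0.15 at day 6 (adjusted p = 6.8e-07) and then by 0.79 ± 0.15 on day 9 (adjusted p = 2.5e-04). Both later effects differed from that of day 3, by 0.97 ± 0.21 (adjusted p = 0.00363) and 0.64 ± 0.21 (adjusted p = 0.02). Bmp7, a ligand gene of low level with group means of -0.18 log2 CPM for vehicle and 1.12 for corticosterone at day 3, rose by 1.30 ± 0.30 at that day.

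**Figure D2:**
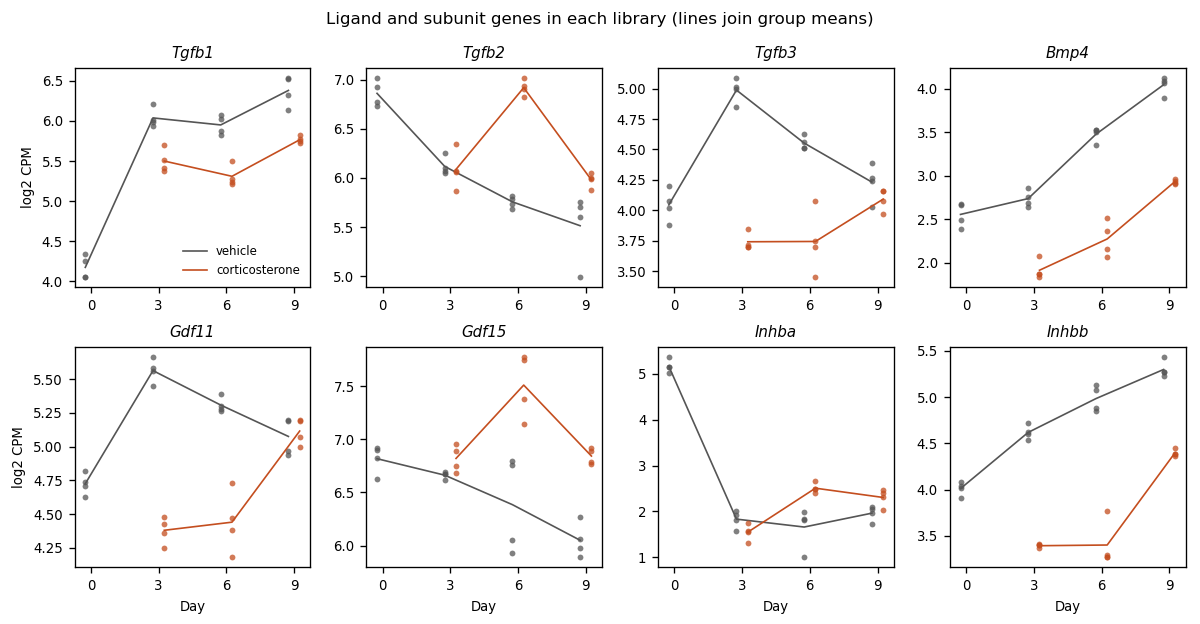
Level in log2 CPM (vertical axes, which differ in range) of 8 ligand and subunit genes in each of the 28 libraries by day, with vehicle in grey, corticosterone in orange and lines through group means of 4 libraries. Bmp4 and Inhbb libraries of the treatments stay apart at all 3 days, Gdf11 and Tgfb3 meet at day 9, and Tgfb2 and Gdf15 separate at day 6.

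The activin and inhibin subunit genes, whose products pair into activins or, with the alpha subunit, into inhibins that block activin, moved apart from each other. Inhbb, the beta B subunit, stood at 4.60, 4.62, 4.72 and 4.54 log2 CPM with vehicle at day 3 and at 3.4, 3.37, 3.41 and 3.4 with corticosterone. By day 6 it stood at 4.85, 4.88, 5.08 and 5.13 with vehicle and at 3.3, 3.27, 3.27 and 3.77 with corticosterone. Day 9 values were 5.27, 5.27, 5.43 and 5.23 with vehicle and 4.39, 4.45, 4.36 and 4.39 with corticosterone. No libraries of the treatments overlapped. Inhbb fell by 1.22 ± 0.08 at day 3 (limma adjusted p = 4.3e-12), by 1.58 ± 0.08, or 2.99-fold, at day 6 (adjusted p = 2.6e-14) and then by 0.90 ± 0.08 on day 9 (adjusted p = 7.1e-09). The change of effect between day 3 and day 6 was -0.36 ± 0.12 (adjusted p = 0.0579); without corticosterone day 6 replicate 6, the library at 3.77, it was -0.48 (adjusted p = 8.4e-04).

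Inha, the alpha subunit, rose by 0.37 ± 0.11 at day 3 and fell by 0.51 ± 0.11 at day 6 and by 0.69 ± 0.11 at day 9. The libraries did not overlap at any of these days. At day 3 they were barely apart, as vehicle replicate 5 and corticosterone replicate 1 both stood at 3.28 log2 CPM after rounding. The effect at day 6 differed from that at day 3 by -0.88 ± 0.15 (limma adjusted p = 2.5e-04). Inhba, the beta A subunit, rose by 0.85 ± 0.16 at day 6, and its uncalled values were -0.28 at day 3 and 0.34 at day 9. The day 6 effect of Inhba differed from that of day 3 by 1.13 ± 0.22 (adjusted p = 0.00122).

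Among receptor genes changes stayed under 2-fold. Of the 4 type I receptors, which carry the SMAD-phosphorylating kinase, 1 rose and 1 fell at day 3, 1 rose at day 6 and 1 fell at day 9. The share of these 4 genes called at day 3 was close to the 49.0% of all genes. At days 6 and 9 it was 25.0%, below the 47.2 and 28.5% of all genes. Acvr1, which serves BMP ligands, was called lower at day 3 (-0.20 ± 0.06, limma adjusted p = 0.0122), and without vehicle day 3 replicate 3 it was not (-0.17, adjusted p = 0.0513). Acvr1b, the activin type I receptor, was called higher at day 3 (0.17 ± 0.06, adjusted p = 0.0308) and lower at day 9 (-0.29 ± 0.06, adjusted p = 0.00101). Its day 3 call was lost, at 0.12 to 0.17, without vehicle replicate 3 or 6 or without corticosterone replicate 1, 5 or 6 of that day. Tgfbr1, the type I receptor for TGF-beta, rose by 0.42 ± 0.07 at day 6 and not by the test at the other days, although its day 3 value of 0.14 became 0.23 (limma adjusted p = 0.00172) without corticosterone day 3 replicate 4. Tgfbr2, the type II receptor for TGF-beta, fell by 0.55 ± 0.08 at day 3 and by 0.30 ± 0.08 at day 6. Acvr2a, an activin type II receptor, rose by 0.36 ± 0.10 at day 6, and Bmpr1a, Bmpr2 and Acvr2b, receptors for BMP and activin ligands, were not called on any day in the main fit. With only the groups compared in the fit, Bmpr1a was called at day 6 (0.22, limma adjusted p = 0.0392) and Bmpr2 at day 9 (-0.24, adjusted p = 0.00678). Acvr2b was called at day 9 without vehicle replicate 6 (-0.80, adjusted p = 0.0429) or corticosterone replicate 6 (-0.84, adjusted p = 0.0332) of that day.

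The coreceptor betaglycan gene, Tgfbr3, whose product presents TGF-beta and binds inhibin, rose by 0.31 ± 0.07 at day 3 and by 0.59 ± 0.07 at day 6. It fell by 0.20 ± 0.07 at day 9, a call that was lost, at -0.16 to -0.21, without vehicle replicate 3, 4 or 5 or without any one of the 4 corticosterone libraries of that day. Tgfbr3l, a related coreceptor gene, rose by 0.62 ± 0.19 at day 3 only. Bambi, a decoy receptor without a kinase, had group means of 0.06 to 0.50 log2 CPM and was not called.

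Of the 6 receptor-regulated and common SMAD genes, 2 rose and 2 fell at day 3, 2 rose at day 6 and 1 rose at day 9. The share called was 66.7, 33.3 and 16.7%, beside 49.0, 47.2 and 28.5% of all genes. Smad9 encodes the BMP-responsive SMAD8. It stood at 5.57, 5.56, 5.57 and 5.49 log2 CPM with vehicle at day 3 and at 6.27, 6.09, 6.4 and 6.33 with corticosterone. At day 6 values were 4.84, 4.86, 4.76 and 4.77 with vehicle and 6.37, 6.36, 6.23 and 5.95 with corticosterone. At day 9 they were 4.34, 4.29, 4.28 and 4.27 with vehicle and 5.00, 4.97, 5.01 and 4.97 with corticosterone. Every corticosterone library lay above every vehicle library of its day. Smad9 rose by 0.72 ± 0.07 at day 3 (limma adjusted p = 1.7e-09), by 1.42 ± 0.07, or 2.68-fold, at day 6 (adjusted p = 4.3e-15) and then by 0.69 ± 0.07 on day 9 (adjusted p = 1.9e-08). The larger effect of day 6 differed from that of day 3 by 0.70 ± 0.10 (adjusted p = 1.8e-05). Between those days its vehicle mean went from 5.55 to 4.81 and its corticosterone mean from 6.27 to 6.23.

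Smad1, another BMP-responsive SMAD, rose by 0.23 ± 0.09 at day 3 and by 0.63 ± 0.09 at day 6. Smad2, which carries TGF-beta and activin signals, fell by 0.49 ± 0.09 at day 3. Smad5 fell by 0.26 ± 0.10 at day 3, but by only 0.12 (limma adjusted p = 0.189) without corticosterone day 3 replicate 4. That call was also lost, at -0.23 to -0.25, without vehicle replicate 3, 4 or 5 or corticosterone replicate 1 of day 3. The day 3 call of Smad1 was lost, at 0.17 to 0.22, without vehicle replicate 4 or 5 or corticosterone replicate 1 or 6. Smad4, the common partner, was not called on any day, and Smad3 was called lower at day 6 only when replicate number was a block (-0.37, adjusted p = 0.0125, against -0.21 and 0.385 without it).

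The inhibitory SMAD genes are themselves targets of the pathways they restrain; Smad6 rose at all 3 days and Smad7 at day 6. Smad6, which mainly restrains BMP signals, stood at 4.46, 4.06, 4.29 and 4.23 log2 CPM with vehicle at day 3 and at 4.99, 5.03, 5.02 and 5.08 with corticosterone. At day 6 it stood at 3.67, 3.62, 4.28 and 4.28 with vehicle and at 5.06, 5.29, 5.32 and 5.11 with corticosterone. Day 9 values were 3.90, 4.07, 3.91 and 3.74 with vehicle and 4.39, 4.14, 4.33 and 4.32 with corticosterone. The groups stayed apart on all 3 days, narrowly at day 9. Smad6 rose by 0.77 ± 0.12 at day 3 (limma adjusted p = 7.3e-06), by 1.23 ± 0.12 at day 6 (adjusted p = 3.2e-09) and then by 0.39 ± 0.12 on day 9 (adjusted p = 0.017). The day 9 call was lost without vehicle replicate 6 (0.34, adjusted p = 0.0599) or corticosterone replicate 3 (0.36, adjusted p = 0.0504).

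Smad7, which restrains both branches, stood at 5.51, 4.95, 4.97 and 5.03 log2 CPM with vehicle at day 3 and at 5.47, 5.08, 5.50 and 5.18 with corticosterone. Day 6 values were 5.56, 5.53, 5.60 and 5.65 with vehicle and 5.81, 5.92, 5.98 and 5.95 with corticosterone. Day 9 values were 5.71, 5.69, 5.84 and 5.81 with vehicle and 5.51, 5.63, 5.55 and 5.43 with corticosterone. Corticosterone libraries were above all vehicle libraries at day 6 and below all at day 9, with overlap at day 3. Smad7 rose by 0.33 ± 0.10 at day 6 (limma adjusted p = 0.00868). Its day 3 value was 0.19 ± 0.10 (adjusted p = 0.121), and 0.33 (adjusted p = 0.00373) without vehicle day 3 replicate 3 or 0.27 (adjusted p = 0.0322) without corticosterone day 3 replicate 4. Its day 9 value was -0.23 ± 0.10 (adjusted p = 0.0919). Smurf2, a ubiquitin ligase that marks receptors and SMADs for breakdown, was called lower at day 3 (-0.25 ± 0.10, adjusted p = 0.0485) and stood at -0.07 (adjusted p = 0.334) without corticosterone day 3 replicate 4; the call was lost too without vehicle replicate 3, 4 or 6, at -0.23 to -0.26. Its day 6 call (-0.25 ± 0.10, adjusted p = 0.0457) was lost without vehicle replicate 3, 4 or 6 or corticosterone replicate 3, 5 or 6, at -0.23 to -0.27. Smurf1, a ligase of the same kind, was called lower at day 9 (-0.18 ± 0.06, adjusted p = 0.0171), and not without vehicle replicate 3 or 5 (both -0.16).

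All 4 Id genes rose at day 6, 3 of 4 at day 3 and 3 of 4 at day 9, beside 22.9, 23.3 and 14.1% of all genes. Id1 stood at 4.57, 4.21, 4.57 and 4.49 log2 CPM with vehicle at day 3 and at 5.40, 5.83, 5.77 and 5.53 with corticosterone. At day 6 it stood at 3.81, 3.75, 4.26 and 4.00 with vehicle and at 5.27, 5.51, 5.60 and 5.36 with corticosterone. By day 9 it stood at 3.90, 3.80, 3.85 and 4.13 with vehicle and at 4.28, 4.15, 4.22 and 4.14 with corticosterone. The gap was wide at days 3 and 6 and nearly closed at day 9. Id1 rose by 1.17 ± 0.11 at day 3 (limma adjusted p = 1.1e-09) and then by 1.48 ± 0.11 on day 6 (adjusted p = 1.2e-11), and its day 9 value was 0.28 ± 0.11 (adjusted p = 0.0548), or 0.35 (adjusted p = 0.0244) without vehicle day 9 replicate 6. The day 9 effect differed from that of day 3 by -0.89 ± 0.15 (adjusted p = 4.1e-05).

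Id3 stood at 6.98, 6.84, 7.12 and 6.96 log2 CPM with vehicle at day 3 and at 7.84, 8.24, 8.03 and 7.94 with corticosterone. Its day 6 values were 6.05, 5.95, 6.3 and 6.24 with vehicle and 7.83, 7.96, 7.96 and 7.75 with corticosterone. Its day 9 values were 5.76, 5.81, 5.81 and 5.92 with vehicle and 6.64, 6.46, 6.51 and 6.5 with corticosterone. No groups overlapped, and vehicle means went from 7.38 at day 0 to 5.82 at day 9. Id3 rose by 1.04 ± 0.08 at day 3 (limma adjusted p = 4.4e-11), by 1.74 ± 0.08, or 3.33-fold, at day 6 (adjusted p = 2.3e-15) and then by 0.70 ± 0.08 on day 9 (adjusted p = 2.1e-07). The day 6 effect differed from that of day 3 by 0.70 ± 0.11 (adjusted p = 1.4e-04), and that of day 9 by -0.33 ± 0.11 (adjusted p = 0.0226), which became -0.26 (adjusted p = 0.0512) without corticosterone day 3 replicate 4 and -0.29 (adjusted p = 0.0566) without vehicle day 3 replicate 4.

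Id4 stood at 3.79, 3.64, 3.59 and 3.72 log2 CPM with vehicle at day 3 and at 3.96, 4.22, 4.19 and 4.06 with corticosterone. At day 6 it stood at 3.49, 3.58, 3.71 and 3.64 with vehicle and at 4.55, 4.59, 4.69 and 4.46 with corticosterone, and at day 9 at 3.51, 3.36, 3.38 and 3.54 with vehicle and at 3.91, 3.85, 4.15 and 3.88 with corticosterone. All corticosterone libraries lay above the vehicle libraries of their day. Id4 rose by 0.42 ± 0.08 at day 3 (limma adjusted p = 5.1e-05), by 0.96 ± 0.08 at day 6 (adjusted p = 6.3e-11) and then by 0.50 ± 0.08 on day 9 (adjusted p = 1.8e-05). The effect grew by 0.54 ± 0.11 between day 3 and day 6 (adjusted p = 0.00156).

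Id2 was not called at the end of treatment and was called higher with corticosterone at days 6 and 9. Between days 3 and 6 its vehicle mean went from 7.45 to 6.92 log2 CPM and its corticosterone mean from 7.51 to 7.40. At day 9 the means were 6.88 and 7.23. It stood at 7.52, 7.35, 7.46 and 7.47 log2 CPM with vehicle at day 3 and at 7.40, 7.66, 7.62 and 7.35 with corticosterone. At day 6 it stood at 6.89, 6.93, 6.98 and 6.87 with vehicle and at 7.41, 7.41, 7.38 and 7.40 with corticosterone, and at day 9 at 6.87, 6.75, 6.85 and 7.02 with vehicle and at 7.18, 7.21, 7.25 and 7.28 with corticosterone. Day 3 groups overlapped and later groups did not. The day 3 value was 0.06 ± 0.06 (limma adjusted p = 0.425). Id2 rose by 0.48 ± 0.06 at day 6 (adjusted p = 1.4e-07) and then by 0.35 ± 0.06 on day 9 (adjusted p = 4.5e-05), and both effects differed from that of day 3, by 0.42 ± 0.08 (adjusted p = 0.00127) and 0.29 ± 0.08 (adjusted p = 0.00602).

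**Figure D3:**
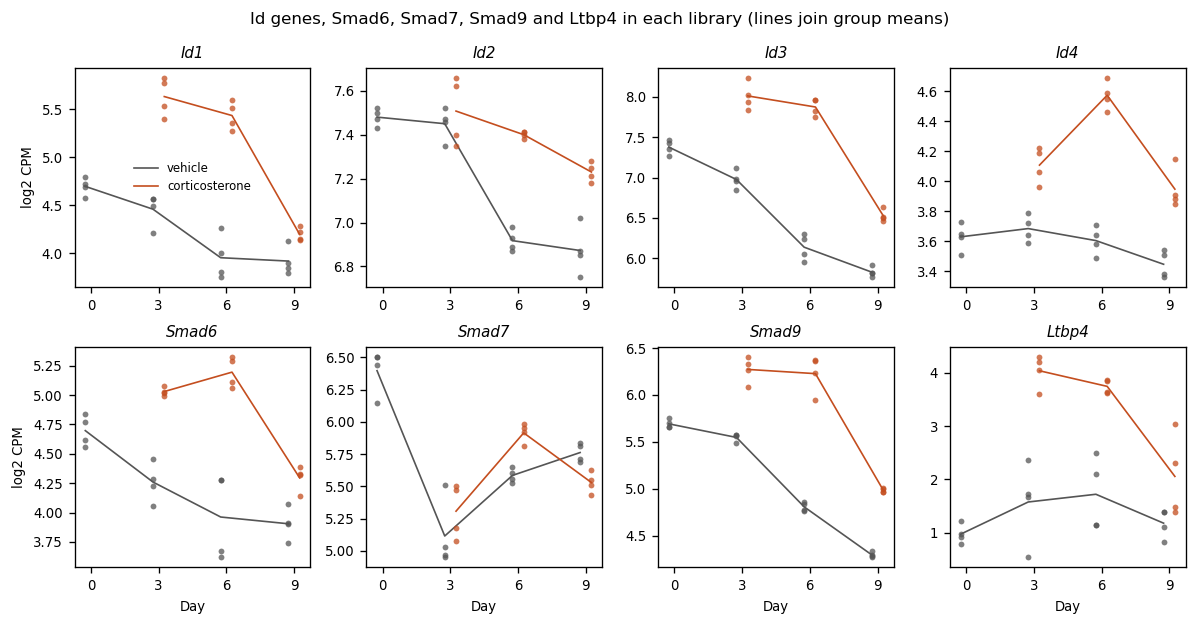
Level in log2 CPM (vertical axes, which differ in range) of the 4 Id genes, Smad6, Smad7, Smad9 and Ltbp4 in each of the 28 libraries by day, with vehicle in grey, corticosterone in orange and lines through group means of 4 libraries. At day 6 every corticosterone library of all 8 genes lies above every vehicle library; vehicle levels of Id3 and Smad9 step down from day 0 to day 9.

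The promoters of the Id genes were to be shown by rule, as the 250 bases before the start in RefSeq on GRCm38.p6. Of these, Id4 is printed. The promoter set used held no entry for Id1, and Id2 and Id3 are treated below. Smad6 and Smad9 were added after their values were seen. The windows lie at chr13:48260866-48261115 (plus strand) for Id4, chr9:64022060-64022309 (minus strand) for Smad6 and chr3:54755332-54755581 (plus strand) for Smad9, and overlap no annotated exon in GENCODE M21. Capitals mark letters that match GGCGCC, found in BMP-responsive elements, CAGAC, the SMAD box, or AGAACA, a hexamer bound by steroid receptors, on either strand.
Id4 promoter: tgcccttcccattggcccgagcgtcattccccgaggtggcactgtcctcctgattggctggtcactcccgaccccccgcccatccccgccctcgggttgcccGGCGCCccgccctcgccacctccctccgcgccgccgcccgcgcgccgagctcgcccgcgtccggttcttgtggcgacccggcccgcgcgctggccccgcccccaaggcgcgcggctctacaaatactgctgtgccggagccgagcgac
Smad6 promoter: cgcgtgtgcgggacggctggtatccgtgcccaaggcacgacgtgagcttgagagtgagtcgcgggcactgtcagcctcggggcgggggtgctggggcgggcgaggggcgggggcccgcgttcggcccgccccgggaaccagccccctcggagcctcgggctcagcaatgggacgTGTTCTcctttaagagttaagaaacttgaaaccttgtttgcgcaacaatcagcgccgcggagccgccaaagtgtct
Smad9 promoter: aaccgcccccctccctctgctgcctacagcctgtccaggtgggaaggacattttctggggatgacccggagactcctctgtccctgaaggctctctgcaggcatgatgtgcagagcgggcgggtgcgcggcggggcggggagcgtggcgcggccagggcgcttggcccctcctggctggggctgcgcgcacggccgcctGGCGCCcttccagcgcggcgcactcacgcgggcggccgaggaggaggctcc
GGCGCC stands in the Id4 and Smad9 windows, 148 to 143 and 51 to 46 bases before the start, and in 9.59% of the 32851 promoters of the set used. The Id4, Smad6 and Smad9 windows hold 75.6, 66.8 and 73.2% of G or C. Shares over all promoters are not matched for that content. In the Smad6 window the minus-strand form of AGAACA stands 76 to 71 bases before the start, and 16.1% of promoters hold that hexamer. CAGAC, in 42.2% of promoters, is in none of these 3 windows. GTCTAGAC, a palindromic SMAD element searched only after the Smad6 window had been read, is in none of them and in 0.167% of promoters. The corresponding windows of Id2 and Id3 overlap annotated exons and are not printed; the first holds GGCGCC and the second holds CAGAC at 2 places. A match is a description of letters and no evidence of binding.

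Of the 2 secreted antagonist genes, 1 rose and 1 fell at days 3 and 6, where 49.0 and 47.2% of all genes were called. Fst, whose product follistatin traps activins, went from a vehicle mean of 1.31 to 0.20 log2 CPM and fell by 1.10 ± 0.20 at day 3 (limma adjusted p = 5.5e-05) and by 0.72 ± 0.20 at day 6. Fstl3, a relative with the same binding partners, rose by 0.49 ± 0.18 at day 3 and by 0.64 ± 0.18 at day 6. Its level was low, with day 3 means of 0.38 log2 CPM for vehicle and 0.87 for corticosterone. The day 3 call of Fstl3 was lost without corticosterone day 3 replicate 4 (0.37, adjusted p = 0.104) or vehicle day 3 replicate 4 (0.45, adjusted p = 0.066). It was lost too after quantile normalization (0.34, limma adjusted p = 0.15) and with only the groups compared in the fit (0.49, adjusted p = 0.0527). Fstl1, a follistatin-like secreted glycoprotein, fell by 0.54 ± 0.04 at day 3 and by 0.16 ± 0.04 at day 6.

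Of the latent TGF-beta binding protein genes, Ltbp4 had the largest fold change of corticosterone over vehicle among all 48, over the 3 days. It stood at 0.54, 1.73, 1.68 and 2.36 log2 CPM with vehicle at day 3 and at 4.06, 4.29, 3.61 and 4.20 with corticosterone. At day 6 it stood at 2.50, 1.15, 2.10 and 1.14 with vehicle and at 3.65, 3.84, 3.63 and 3.87 with corticosterone, and at day 9 at 1.39, 0.83, 1.39 and 1.11 with vehicle and at 3.05, 1.48, 1.39 and 2.31 with corticosterone. Vehicle libraries were widely spread at days 3 and 6 but lay below all corticosterone libraries, and the groups met at day 9. Ltbp4 rose by 2.47 ± 0.34, or 5.53-fold, at day 3 (limma adjusted p = 1.0e-06) and then by 2.02 ± 0.34 on day 6 (adjusted p = 1.7e-05). Its day 9 value was 0.88 ± 0.34 (adjusted p = 0.0547), a change from day 3 of -1.59 ± 0.48 (adjusted p = 0.0101). Without corticosterone day 9 replicate 4 or 5 the day 9 value was called (1.07, adjusted p = 0.0301, and 1.10, adjusted p = 0.0238). Ltbp1, which anchors latent TGF-beta in the matrix, fell by 0.97, 0.87 and 0.37 at the 3 days. Ltbp3 was called lower at day 6 (-0.21 ± 0.06) and at day 9 (-0.16 ± 0.06). Its day 9 call was lost without vehicle replicate 3, 4 or 5 or corticosterone replicate 4, 5 or 6 of that day, at -0.13 to -0.16, and after quantile normalization its day 9 value was 0.02 (adjusted p = 0.905).

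Of the 4 genes that matched by symbol only, 1 was called on each day, or 25.0%, beside 49.0, 47.2 and 28.5% of all genes. Bmp1, a metalloproteinase that cleaves procollagen and the BMP antagonist chordin, rose by 0.33 ± 0.09 at day 9, Bmp2k fell by 0.23 ± 0.06 at day 3 and Tgfbrap1 rose by 0.17 ± 0.06 at day 6. With replicate number as a block, the call of Tgfbrap1 was lost (0.13, limma adjusted p = 0.0634), as it was without corticosterone day 6 replicate 1 (0.13) or 3 (0.15).

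The corticosterone effect at day 6 differed from that at day 3 for 11 of the 48 genes, in 10 of them upwards, or 22.9% beside 9.11% of all genes; without corticosterone day 6 replicate 6 it differed upwards in 10 and downwards in 3. At day 9 it differed from that at day 3 for 23 genes, 14 upwards and 9 downwards, or 47.9% beside 38.3%. The upward set at day 9 holds, among others, genes that had fallen at day 3, such as Tgfb3, Gdf11, Tgfbr2 (0.75 ± 0.12) and Fstl1 (0.55 ± 0.06). The downward set holds, among others, genes that had risen, such as Id1, Ltbp4 and Tgfbr3 (-0.50 ± 0.10). These contrasts share the day 3 libraries.

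The vehicle libraries of each day were also compared with the untreated cells of day 0, a comparison in which days in culture, ethanol and changes of medium cannot be told apart. Against day 0, vehicle libraries had 17 members higher and 14 lower at day 3, beside 36.5% and 32.7% of all genes. There were 18 higher and 18 lower at day 6, beside 36.4% and 33.7%, and 16 higher and 17 lower at day 9, beside 35.9% and 34.6%. In either direction 64.6, 75 and 68.8% of the 48 were called at the 3 days, beside 69.2, 70.1 and 70.4% of all genes. Inhba fell by 3.34 ± 0.16 by day 3, a 10.1-fold change, from a mean of 5.17 ± 0.14 log2 CPM (SD, n = 4 libraries) at day 0 to 1.83 ± 0.19, and Fst by 2.32 ± 0.20. Tgfb1 rose by 1.86 ± 0.09 by day 3, from a mean of 4.18 to 6.04 log2 CPM, Ltbp3 by 1.33 ± 0.06 and Tgfbr3 by 1.36 ± 0.07. Ltbp1 fell by 1.91 ± 0.11 and Smad7 by 1.29 ± 0.10. Bmp4 was not called at day 3 (0.18 ± 0.09) but rose by 0.92 at day 6 and by 1.5 at day 9. All 4 Id genes were lower at day 9 than at day 0, from -0.18 ± 0.08 for Id4 to -1.55 ± 0.08 for Id3, and Smad9 fell by 1.40 ± 0.07. The call of Id4 was lost, at -0.15 to -0.18, without vehicle day 0 replicate 3, 4 or 6 or vehicle day 9 replicate 4 or 5. It was lost too with only the groups compared in the fit (limma adjusted p = 0.0514) and with replicate number as a block (adjusted p = 0.0503). From day 0 to day 9 the vehicle mean of Inha went from 1.95 to 3.32 log2 CPM, that of Bmp6 from 3.83 to 4.70 and that of Acvr1b from 4.08 to 5.35. Over the same days that of Tgfbr2 went from 6.90 to 5.80, that of Tgfbr3 from 6.00 to 7.52, that of Ltbp3 from 8.88 to 10.46 and that of Ltbp1 from 7.29 to 6.03, all called. Comparisons of the 3 days share the day 0 libraries.

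Set per kilobase of the longest coding transcript, levels could be compared between genes. At day 0 the highest mean levels per length were those of Id3 at 130.0 CPM per kilobase, Id2 at 90.7 and Ltbp3 at 90.6, and the lowest those of Bmp7 at 0.042 and Ltbp2 at 0.0649. Ltbp3 stood first at day 3, with a mean level of 228 CPM per kilobase under both treatments. Id3 stood at 98.7 CPM per kilobase with vehicle and 203 with corticosterone. Among ligands at day 3, Gdf15 stood highest per length (65.7 with vehicle), followed by Tgfb1 (30.3), Tgfb2 (13.6) and Gdf11 (11.7). The order depends on the length used: by the median length of coding transcripts, Ltbp3 stood first at day 0, Id2 second, Smad3 in place 3 of 48 instead of place 13, and Id3 in place 4.

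**Figure D4:**
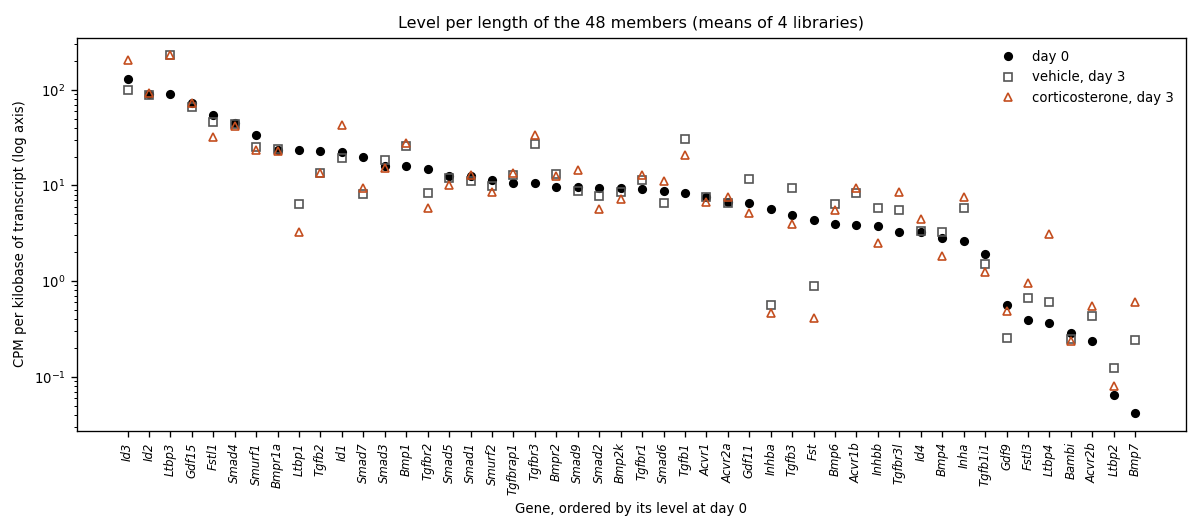
Mean level of the 48 genes in CPM per kilobase of the longest coding transcript (log axis) at day 0 (filled circles) and at day 3 with vehicle (squares) or corticosterone (triangles), ordered by the day 0 level, with 4 libraries a group. Inhba, Fst and Ltbp1 lie far below their day 0 level at day 3 under both treatments, while the corticosterone points of Ltbp4 and Id1 lie above both others.

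Other genes of the pathway, outside the symbol pattern, came from 5 lists of which 93 of 118 genes were measured. Of these 93, 12 rose and 42 fell at day 3, 21 rose and 38 fell at day 6, and 11 rose and 26 fell at day 9, with medians of -0.17, -0.11 and -0.07. The share called was 58.1, 63.4 and 39.8%, beside 49.0, 47.2 and 28.5% of all genes. Of 25 measured TGF-beta and activin target genes, 3 rose and 15 fell at day 3 and 6 rose and 16 fell at day 6, or 72.0 and 88.0% called, with medians of -0.40 and -0.43. Fn1, the fibronectin gene, fell by 1.38 ± 0.10 at day 6. Timp3, a metalloproteinase inhibitor gene, fell by 0.69 ± 0.05 at day 3. Of 9 measured BMP target genes beyond the Id genes, 3 rose and 2 fell at day 3 and 4 rose and 2 fell at day 6, or 55.6 and 66.7% called. Atoh8, a helix-loop-helix factor, rose by 1.75 ± 0.13 at day 6 and Lfng, which modifies Notch receptors, fell by 0.75 ± 0.06 at day 3. Gata3, a transcription factor gene, rose by 0.82 ± 0.07 at day 3, and Unc5b, a netrin receptor gene, by 0.78 ± 0.05 at day 6.

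Of 11 measured genes of latency and activation, 1 rose and 7 fell at day 3 and 1 rose and 6 fell at day 6, or 72.7 and 63.6% called beside 49.0 and 47.2% of all genes. Itgb6, the beta 6 subunit of an integrin that activates latent TGF-beta, fell by 2.69 ± 0.07 at day 3 and by 3.02 ± 0.07 at day 6 (limma adjusted p = 3.5e-21). Itgb8, which encodes the subunit of another such integrin, fell by 0.94 ± 0.12 at day 3, and Mmp14, a membrane metalloproteinase gene, by 0.45 ± 0.06 at day 6. Of 17 extracellular modulators, 3 rose and 6 fell at day 3 and 4 rose and 7 fell at day 6, or 52.9 and 64.7% called. Dcn, whose product decorin binds TGF-beta and which is also among the fibroblast markers, rose by 2.76 ± 0.10 at day 3. Sost, a secreted antagonist of BMP and WNT ligands, fell by 3.83 ± 0.26 at day 6. The day 6 means of Sost were 2.57 log2 CPM with vehicle and -1.25 with corticosterone. Cd109, a TGF-beta coreceptor gene, fell by 0.88 ± 0.05 at day 3. Of 31 intracellular regulators, 2 rose and 12 fell at day 3 and 6 rose and 7 fell at day 6, or 45.2 and 41.9% called, below the 49.0 and 47.2% of all genes. Those that fell at day 3 include Pmepa1, a TGF-beta induced inhibitor of SMAD2 and SMAD3 activation, which fell by 1.16 ± 0.15, and Ldlrad4, which encodes a related protein and fell by 0.76 ± 0.08. At day 6 the ubiquitin ligase gene Wwp1 rose by 0.70 ± 0.07 and the SMAD corepressor gene Tgif2 fell by 0.85 ± 0.09.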

How the data were processed

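The deposited table holds log2 CPM (counts scaled to library size), which its file name calls normalized, so the authors had scaled the values already. The submitters' processing notes name kallisto, edgeR 3.40.1, limma 3.54.0 and mm10. Their roles, the normalization method, the prior count and the annotation are not given in the sources used here. Libraries were stranded mRNA libraries, per the labels' protocols, which also gave the groups.

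The filter asked for a log2 CPM over 0 in 4 or more libraries and removed none of the 13128 genes. Group means were estimated from the 28 libraries together (limma 3.58.1, R 4.3.3, intensity trend, 21 residual degrees of freedom). A gene is called, and said to rise or fall, at a Benjamini-Hochberg adjusted p under 0.05 over all genes of a contrast. Values after ± are SE of log2 fold changes unless SD is named. The fit was tested on simulated data.

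The members and lists were chosen with earlier results of these data known. Values in every library are given for members called with at least 2-fold change with corticosterone and a mean of at least 1 log2 CPM, and for the Id genes, Smad6 and Smad7. In the other lists the 2 called genes with the smallest p at days 3 and 6 are named, except 1 that is not reported here. Lengths are of GENCODE M21 coding transcripts; the longest replaced the median after the first ranks were seen, because partial models had raised some genes. Of 4 motifs searched, GTCTAGAC was added after a promoter had been read. Replicate numbers were taken to pair libraries at day 6 only, where the deviations of all 3 same-numbered pairs correlated at 0.11 to 0.1555 (the limit being 0.1). At day 3 they correlated at -0.03082 to 0.07101 and at day 9 at 0.03244 to 0.1674. Differently numbered libraries of different groups correlated at -0.3938 to 0.3381, a range that holds the day 6 values, so the pairing is uncertain. The main fit used no replicate block at any day. Alternatives were a stricter filter (log2 CPM above 2), no filter, log2(CPM + 1), quantile normalization, median centring, only the groups compared, a replicate block, no intensity trend and leaving out each library.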

Additional observations from a re-analysis of the deposited data

Results flagged for a closer look

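Among 98 sets of 4 libraries examined for the 14 genes given library by library, 5 held 1 library far from the other 3, and chance gives about 1 in 20. They were Bmp4 in vehicle day 6 replicate 4 (3.35 log2 CPM, the others 3.5 to 3.53), Inhbb in corticosterone day 6 replicate 6 (3.77, the others 3.27 to 3.3), Smad7 in vehicle day 0 replicate 5 (6.15, the others 6.44 to 6.5), Smad7 in vehicle day 3 replicate 3 (5.51, the others 4.95 to 5.03) and Tgfb3 in corticosterone day 3 replicate 4 (3.85, the others 3.70 to 3.72).

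For the same 14 genes the corticosterone effect was tested for a change between days (limma interaction contrast, adjusted over all genes). Apart from the Id genes, Smad6 and Smad7, they had been chosen for a large corticosterone effect in these same libraries. That choice favours a change between days, so the counts are descriptive only. Over all genes the effect differed from that of day 3 in 9.11% at day 6 and in 38.3% at day 9. From day 3 to day 6 the effect changed in 7 of the 14 genes: Tgfb2 by 1.19, Gdf15 by 0.97, Id3 by 0.70, Smad9 by 0.70, Id4 by 0.54, Tgfb3 by 0.43 and Id2 by 0.42 on the log2 scale. From day 3 to day 9 it changed in 10 genes. It was higher at day 9 for Gdf11 by 1.22, Tgfb3 by 1.10, Gdf15 by 0.64, Tgfb2 by 0.50, Inhbb by 0.32 and Id2 by 0.29. The change was -1.59 for Ltbp4, -0.89 for Id1, -0.43 for Smad7 and -0.33 for Id3. The calls of Tgfb3 at day 6 and of Inhbb, Smad7, Id3 and Tgfb2 at day 9 were lost under at least 1 alternative.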

How the results depend on the processing

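Over 384 pairs of a member and a comparison, 6864 values were recomputed under the alternatives, and 6457 kept their direction and their side of the threshold. Of 208 called pairs, 40 lost the call under at least 1 alternative, and 54 uncalled pairs gained one. The single called value that changed sign was Ltbp3 at day 9, at 0.02 after quantile normalization. The members whose effect was lower at day 6 than at day 3 numbered 1, and 2 with log2(CPM + 1) or without the intensity trend; leaving out 1 library gave 1 to 3. Leaving out 1 library gave 11 to 15 members higher and 11 to 14 lower with corticosterone at day 3, 17 to 19 and 11 to 12 at day 6, and 7 to 10 and 6 to 10 at day 9. No filter gave the same fit, since the filter had removed no gene. With the replicate block, Smad3 became called at day 6 (-0.37) and Tgfbrap1 lost its call (0.13); elsewhere, where the numbers were not taken to pair libraries, Smad3 became called at day 3 (-0.37) and day 9 (0.31) and Id1 at day 9 (0.28), and Acvr1b (0.15) and Smad5 (-0.25) lost their calls at day 3. The block also gave a call to Smad3 for the effect at day 9 against day 3 (0.68), to Id1 for vehicle day 3 (-0.24) and to Tgfb1i1 for vehicle day 6 against day 0 (-0.34), and Id4 lost its call for vehicle day 9 (-0.18). Depth is unknown, and the SE was largest for 2 genes of low level, Ltbp2 (0.56) and Gdf9 (0.45).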
